A study of Saccharomyces cerevisiae with 4 samples.

Results

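The genes described here encode proteins of the yeast mitochondrial ribosome. They are the 65 rows, of 6782 gene rows in the deposited table, whose standard name is MRP, MRPL, MRPS or RSM followed by a number, with MRP8 left out by name. Of these, 34 are named MRPL and belong to the large subunit, and 20 are named MRPS or RSM and belong to the small subunit. The other 11 are named MRP and a number, and by their known place 3 of them sit in the large and 8 in the small subunit. All 65 passed the filter on low values that left 6037 genes to test.

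Every library came from Saccharomyces cerevisiae of the W303 background with a single 6xIAPP copy at LEU2, driven by a promoter that responds to estradiol. IAPP is islet amyloid polypeptide, an amyloid-forming hormone, and the series was set up to assay the toxicity of the construct. The uninduced group (n = 2) was incubated with DMSO and the induced group (n = 2) with 100 nM estradiol, both for 6 h during logarithmic growth. The pairs are biological replicates per the design text. The p-values rest on the spread within these pairs, which limma moderates for each gene towards a trend over all genes tested. Estradiol without the construct was not analysed here, so the inducer and the construct cannot be told apart, and no row for the IAPP transcript was used to check induction. Recovered reads ranged from 10397606 to 15582338 per library.

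Mitochondrial ribosomes translate the few mRNAs encoded by mitochondrial DNA, most of them for hydrophobic subunits of the respiratory chain and ATP synthase. In yeast nearly all of their proteins are encoded in the nucleus, made on cytosolic ribosomes and imported, while their rRNA is transcribed inside the organelle. Some proteins descend from the bacterial ribosome and others were added during the evolution of mitochondria. The RNA-binding protein Puf3 is known to bind many of these mRNAs behind the stop codon.

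Mitoribosomal protein mRNAs fell almost as a block. Levels are normalized CPM, read counts scaled to a library size that the authors adjusted, given for uninduced library 1 and 2 and then induced library 1 and 2. Of the 65 genes, 62 were called lower in the induced libraries, 0 were called higher and 3 were not called (limma on log2(CPM + 1), Benjamini-Hochberg adjusted p under 0.05, two-sided). The count called higher was also 0 at an unadjusted p under 0.05, with edgeR and with DESeq2. Among all 6037 genes tested 37.0% were called lower and 35.6% higher, so calls were common in this comparison. The median log2 fold change, induced minus uninduced, was -0.67 over the 65 genes, with quartiles of -0.87 and -0.53, and -0.00 over all genes. At that median, CPM + 1 was 62.8% of its uninduced value. A fitted log2 fold change of -1 or less was found for 8 of the 65 genes and for 7.22% of all genes. Both induced libraries lay below both uninduced libraries for 63 of the 65 genes and for 43.1% of all genes. RNA from whole cultures cannot tell fewer cells with an mRNA from less of it per cell.

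The summed level of the 65 genes was 9084 and 8913 normalized CPM for uninduced libraries 1 and 2, and 5599 and 5567 for induced libraries 1 and 2. Both induced libraries lay far below both uninduced ones, and the libraries of a pair were close to each other. As a share of recovered reads, the 65 genes held 0.885% (95% Wilson interval 0.880 to 0.889%) and 0.855% (0.850 to 0.861%) in the uninduced libraries. In the induced libraries the share was 0.590% (0.585 to 0.594%) and 0.589% (0.585 to 0.592%). These intervals cover counting error only. Across the 65 genes, the log2 difference between the libraries of a pair had an SD of 0.08 in the uninduced and 0.09 in the induced pair, small beside the median change.

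**Figure D1:**
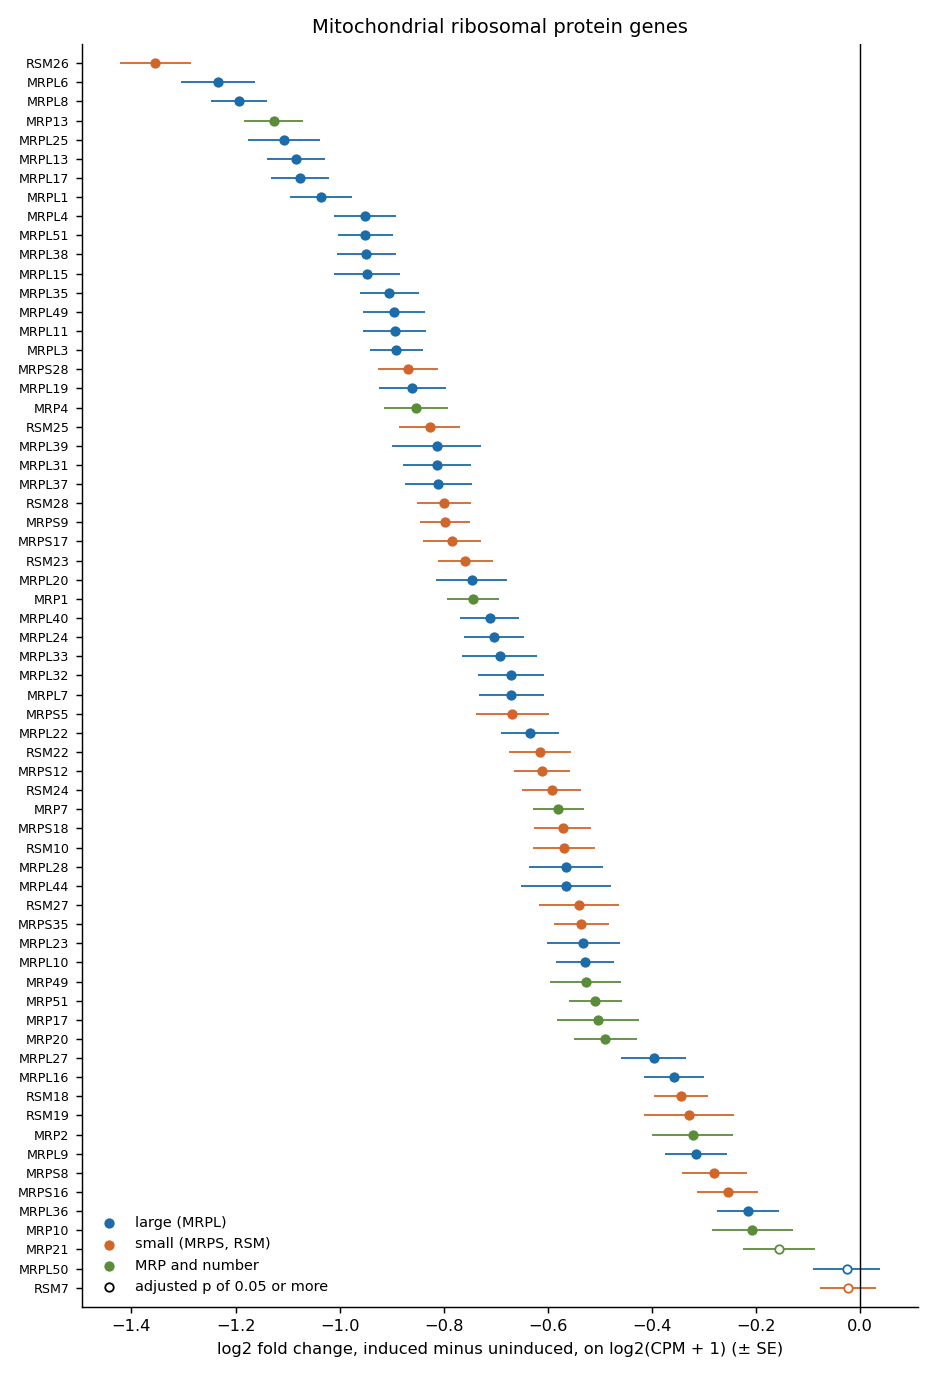
Log2 fold change of each of the 65 genes on the log2(CPM + 1) scale (horizontal axis, induced minus uninduced), with bars of 1 SE from the limma fit, sorted from the largest fall. Colours give the name class, and open symbols mark the 3 genes not called, which sit nearest to 0 at the bottom.

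In the authors' deposited table, 53 of the 65 genes had an adjusted p under 0.05 and a negative log2 fold change, against 21.6% of all genes tested; 0 had one with a positive log2 fold change, against 20.3%. The 12 genes not called in the authors' deposited table were the 12 with the smallest changes here, and 9 of them were called lower here. Scaling each library to its own total moved the median of all genes by 0.12 on the log2 scale and changed the calls over all genes from 2235 lower and 2152 higher to 1776 lower and 2664 higher. Under that scaling 58 of the 65 genes were called lower and 0 higher, and their median minus that of all genes was -0.67.

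**Figure D2:**
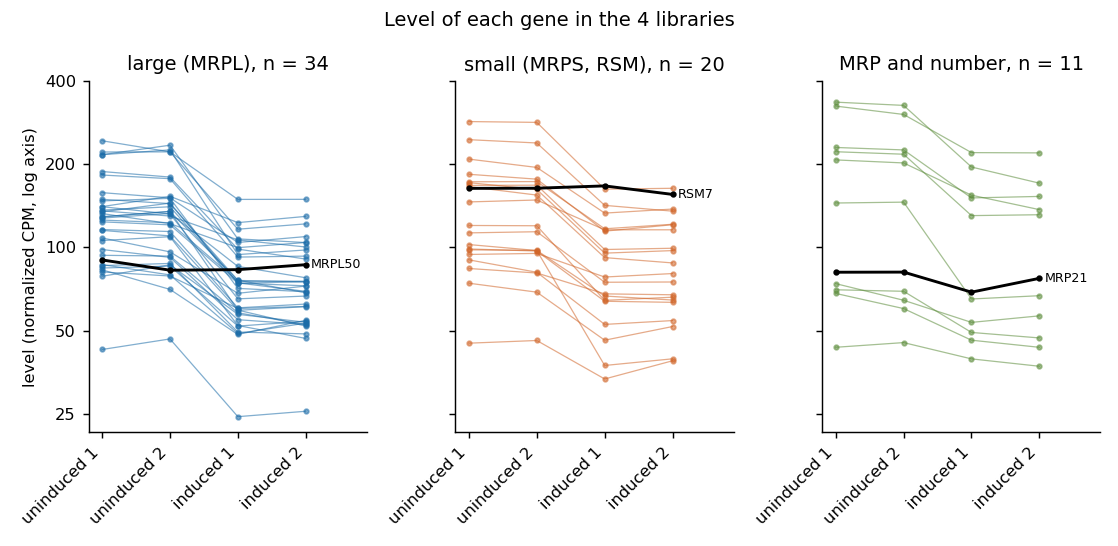
Normalized CPM of every gene in the 4 libraries (log axis), with 1 line per gene joining its own values and a panel for each name class; the order of the libraries within a group has no meaning. The lines step down between the uninduced and induced libraries, except for MRPL50 and RSM7. The 3 genes drawn in black are those not called, and of these MRP21 also steps down.

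The sequence behind the stop codon that Puf3 is known to recognise was searched first, because it groups these mRNAs by a feature that the choice of genes did not use. The letters searched were TGTAAAT, the first 7 bases of the known Puf3 site, on the coding strand of the 200 bases after the stop codon, read from the RefSeq genome of the reference strain, build R64. The study's strain is W303, so single bases may differ from those shown. The letters were present behind 37 of the 65 genes, 56.9%, against 405 of 5704 genes tested that have such a window, 7.10%. Among genes outside the group the share was 6.53%. The core lay 27 to 139 bases after the stop codon, at a median of 57, and the base after it was A in 36 of the 37 genes. Below are 30 bases around the core, 5′ to 3′ on the coding strand with the core in capitals. They come from the 5 genes with the largest falls and from 3 with small changes, picked among genes with the core.
RSM26 (chrX:619111-619140, plus strand): atcttatatacTGTAAATagttttatttta
MRPL6 (chrVIII:392535-392564, minus strand): agggaatacctTGTAAATatcctatgaaaa
MRPL8 (chrX:315714-315743, minus strand): gtgtattccctTGTAAATatatagatgaca
MRP13 (chrVII:647064-647093, minus strand): ataaacataccTGTAAATactaaaaagtag
MRPL25 (chrVII:637008-637037, minus strand): atgtctaatcaTGTAAATaattttgtgata
MRPS8 (chrXIII:572761-572790, plus strand): tatacggaccaTGTAAATaataatattata
MRPS16 (chrXVI:528840-528869, minus strand): tctatcagactTGTAAATaatacatctatg
MRP21 (chrII:49401-49430, plus strand): atttccgtcttTGTAAATaggtaatgcgta

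Genes with and without the core had similar changes among the 65. The median log2 fold change was -0.67 for the 37 genes with the core, of which 36 were called lower, and -0.68 for the 28 genes without it, of which 26 were called lower. The 5 genes with the largest falls all had the core. Among the 5 with the smallest changes, MRP21 had it, while MRPL36, MRP10, MRPL50 and RSM7 did not. MRPS8 and MRPS16, next to these, had it. The core was behind 19 of 28 small subunit genes, 67.9%, and 18 of 37 large subunit genes, 48.6%, counting the MRP and number genes by their known place. Among other genes tested, the median was -0.17 for the 368 with the core, of which 49.7% were called lower, and 0.01 for those without, of which 36.7% were called lower. A match shows that the letters are there, not that Puf3 bound. The mRNA of PUF3 itself had 81.1 and 81.2 CPM uninduced and 60.2 and 49.1 CPM induced and fell, with a log2 fold change of -0.57 ± 0.09 (adjusted p = 5.97e-05, limma).

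**Figure D3:**
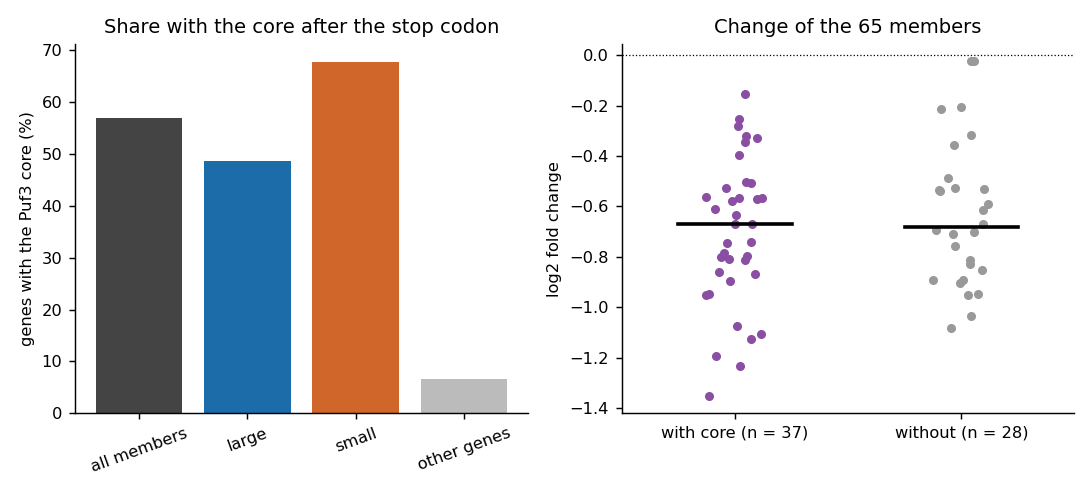
Left, percent of genes with the letters TGTAAAT in the 200 bases after the stop codon, for all 65 genes, for the 37 large and 28 small subunit genes and for other genes tested. Right, log2 fold change of the 65 genes with and without the core (points are genes, lines are medians), where both medians lie between -0.67 and -0.68.

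Large subunit genes named MRPL were led by MRPL6, MRPL8 and MRPL25. MRPL6 (YHR147C, chrVIII:392639-393283, minus strand), the homologue of bacterial L6 near the landing site of translation factors, was at 129 and 135 CPM uninduced and 59.4 and 52.0 CPM induced. Its groups were far apart, with a log2 fold change of -1.23 ± 0.07 (adjusted p = 6.94e-09, limma). MRPL8 (YJL063C, chrX:315759-316475, minus strand), the homologue of bacterial L17, was at 217 and 225 CPM uninduced and 94.3 and 98.0 CPM induced, a log2 fold change of -1.19 ± 0.05 (adjusted p = 8.00e-10, limma). Its libraries were tight within each pair and far apart between them. MRPL25 (YGR076C, chrVII:637104-637577, minus strand), a large subunit protein with no bacterial counterpart, was at 106 and 109 CPM uninduced and 52.2 and 46.9 CPM induced, a log2 fold change of -1.11 ± 0.07 (adjusted p = 1.50e-08, limma). Again both induced libraries lay below both uninduced ones.

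Of the 34 MRPL genes, 33 fell; over the 34 the log2 fold change had a median of -0.81 and a range of -1.23 to -0.02. MRPL50 (YNR022C, chrXIV:669774-670193, minus strand), the homologue of bacterial L9, was the one not called: it was at 90.1 and 82.8 CPM uninduced and 83.1 and 86.7 CPM induced. Its 4 libraries overlapped, the log2 fold change was -0.02 ± 0.06 (adjusted p = 0.740, limma), and its sign turned positive, still uncalled, when libraries were scaled to their totals. MRPL36 (YBR122C, chrII:483970-484503, minus strand), the homologue of bacterial L31, fell least among those called, from 141 and 153 to 123 and 129.6 CPM. Its groups did not overlap, but they came closer than those of most genes here. The log2 fold change was -0.22 ± 0.06 (adjusted p = 0.00567, limma), and the call was lost without induced library 1 (adjusted p = 0.0604), as it was with libraries scaled to their totals, at a log2 fold change of -0.09 (adjusted p = 0.184).

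By place in the large subunit, the 3 stalk proteins had log2 fold changes of -1.04 to -0.86. These are MRPL1, the protein of the L1 stalk beside the exit site, MRPL11, which anchors the factor-binding stalk, and MRPL19 at the base of that stalk. The 4 proteins around the exit of the peptide tunnel (MRPL4, MRPL22, MRPL40 and MRP20), where nascent chains emerge near the inner membrane, had log2 fold changes of -0.95 to -0.49. All 7 fell.

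Small subunit genes named MRPS or RSM were led by RSM26, MRPS28 and RSM25. RSM26 (YJR101W, chrX:618234-619034, plus strand), a protein related to iron and manganese superoxide dismutases, was at 102 and 97.5 CPM uninduced and 37.4 and 39.6 CPM induced. It had the largest fall of the 65 genes, a log2 fold change of -1.35 ± 0.07 (adjusted p = 2.15e-09, limma), with a wide gap between the groups. MRPS28 (YDR337W, chrIV:1146319-1147179, plus strand), the homologue of bacterial S15, was at 120.1 and 119.8 CPM uninduced and 64.4 and 66.1 CPM induced, a log2 fold change of -0.87 ± 0.06 (adjusted p = 2.80e-08, limma). The libraries within each pair nearly coincided. RSM25 (YIL093C, chrIX:187990-188784, minus strand), a small subunit protein with no bacterial counterpart, was at 166 and 155 CPM uninduced and 91.9 and 87.9 CPM induced, a log2 fold change of -0.83 ± 0.06 (adjusted p = 4.65e-08, limma). Its groups were well separated.

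Of the 20 MRPS and RSM genes, 19 fell; over the 20 the log2 fold change had a median of -0.60 and a range of -1.35 to -0.02. The 9 MRPS names had a median of -0.61 and the 11 RSM names one of -0.59. RSM7 (YJR113C, chrX:638232-638975, minus strand), the homologue of bacterial S7 in the head of the small subunit, was the one not called, at 164 and 164 CPM uninduced and 167 and 156 CPM induced. One induced library was the highest of the 4 and the other the lowest, so the groups overlapped. Its log2 fold change was -0.02 ± 0.05 (adjusted p = 0.722, limma), and its sign also turned positive, uncalled, with libraries scaled to their totals. MRPS16 (YPL013C, chrXVI:528985-529350, minus strand), the homologue of bacterial S16, fell least among those called, from 94.4 and 95.2 to 78.2 and 80.5 CPM, a log2 fold change of -0.25 ± 0.06 (adjusted p = 0.00177, limma). With libraries scaled to their totals its log2 fold change was -0.13 and the call was lost (adjusted p = 0.0689), as it was with edgeR without TMM factors (0.0644) and against a 1.2-fold change (0.872). At the decoding centre and the mRNA entry, MRPS12 and MRPS5 had log2 fold changes of -0.61 and -0.67.

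The 11 genes named MRP and a number had a median log2 fold change of -0.51, and 10 of them fell. MRP13 (YGR084C, chrVII:647123-648142, minus strand), a small subunit protein with no bacterial counterpart, was at 145 and 146 CPM uninduced and 65.1 and 66.9 CPM induced, a log2 fold change of -1.13 ± 0.06 (adjusted p = 2.10e-09, limma). It stood apart from the rest of this class by the size of its fall. MRP4 (YHL004W, chrVIII:99219-100403, plus strand), the homologue of bacterial S2, was at 335 and 327 CPM uninduced and 195 and 171 CPM induced, a log2 fold change of -0.85 ± 0.06 (adjusted p = 6.18e-08, limma). It had the highest uninduced CPM of the 65 genes, and its reads may include some from YHL005C, a gene annotated there on the opposite strand, since the strand setting of the counting is not given in the sources used here. MRP1 (YDR347W, chrIV:1169178-1170143, plus strand), which like RSM26 is related to superoxide dismutases, was at 222 and 217 CPM uninduced and 130.4 and 131 CPM induced, a log2 fold change of -0.74 ± 0.05 (adjusted p = 2.95e-08, limma). The groups of both genes were clear of each other.

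At the other end of this class, MRP10 (YDL045W-A, chrIV:372248-372535, plus strand), a small protein with a twin cysteine motif, was at 43.6 and 45.3 CPM uninduced and 39.5 and 37.2 CPM induced, a log2 fold change of -0.21 ± 0.08 (adjusted p = 0.0291, limma). Its groups did not overlap, but its call was lost without uninduced library 2 (adjusted p = 0.107) and without induced library 2 (adjusted p = 0.171). It was also lost with DESeq2 (adjusted p = 0.138) and with libraries scaled to their totals, at a log2 fold change of -0.08 (adjusted p = 0.344). MRP21 (YBL090W, chrII:48825-49358, plus strand), the homologue of bacterial S21, was not called, at 81.4 and 81.5 CPM uninduced and 68.9 and 77.3 CPM induced, a log2 fold change of -0.16 ± 0.07 (adjusted p = 0.0587, limma). Both induced libraries lay below both uninduced ones, and without induced library 2 it was called lower (adjusted p = 0.0235).

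Large and small subunit genes were compared by their medians and sums. The median log2 fold change of the MRPL genes minus that of the MRPS and RSM genes was -0.21. With the MRP and number genes added by their known place, the medians were -0.75 over 37 large and -0.58 over 28 small subunit genes, and 36 and 26 of them fell. The summed CPM of MRPL genes over that of MRPS and RSM genes was 1.572 and 1.596 in the uninduced pair and 1.426 and 1.409 in the induced pair. The ratio was thus lower in both induced libraries than in either uninduced one. With all 65 genes assigned, it was 1.202 and 1.224 uninduced and 1.118 and 1.108 induced. With 2 libraries a group no test of such a score was made.

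The 25 proteins counted as added in mitochondrial evolution all fell, at a median log2 fold change of -0.80. Of the 40 counted as of bacterial origin 37 fell, at a median of -0.62. This order held within each subunit as a description. In the large subunit the medians were -0.85 over 14 mitochondrial and -0.69 over 23 bacterial proteins, and in the small subunit -0.74 over 11 and -0.51 over 17. The 3 genes not called, RSM7, MRPL50 and MRP21, were all of bacterial origin. The origin of each protein comes from the unified ribosomal protein names given as synonyms in the RefSeq annotation and from general knowledge. RSM22, counted among the added proteins, has no unified name, so its origin is less certain.

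Levels were compared between genes per kilobase of coding length. The median over the 65 genes was 199.9 and 195 CPM per kilobase uninduced and 129 and 129 induced. MRPS12, at the decoding centre, had the highest mean, with 398 and 382 CPM per kilobase uninduced and 248 and 262 induced. MRPL51, a large subunit protein with no bacterial counterpart, followed with 432 and 419 CPM per kilobase uninduced and 218 and 220.0 induced, and its reads may include some from YPR099C on the opposite strand. RSM18, the homologue of bacterial S18, came next with 351 and 356 CPM per kilobase uninduced and 278 and 278 induced. The induced libraries were lower for each, and the order of the top genes differed between groups, since MRPL51 was highest uninduced and RSM18 highest induced.

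At the low end, RSM22, a small subunit protein related to methyltransferases, had 52.3 and 51.5 CPM per kilobase uninduced and 33.9 and 33.6 induced, and MRPS5, at the mRNA entry, had 97.6 and 88.1 and 57.0 and 58.9. The highest and lowest genes of a library differed 8.15 to 8.28-fold per kilobase, in induced and uninduced libraries alike. The SD of log2 CPM per kilobase across the 65 genes was 0.52 and 0.52 uninduced and 0.59 and 0.60 induced. Across the 65 genes, the log2 level per kilobase in uninduced and induced means had a Pearson r of 0.87, against 0.99 between the uninduced libraries. Genes share the libraries and are not independent replicates. The log2 fold change had r = -0.03 with the uninduced log2 level per kilobase and r = -0.26 with coding length.

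The 65 genes lie on 14 chromosomes, 12 of them on chromosome IV and 9 on XIV, and a single pair, MRPS12 and RSM19, are neighbours. Neighbours were taken in order of their lower coordinate, so a longer gene that overlaps the neighbour could lie nearer. For 36 genes the next gene upstream in this order starts in the opposite direction with at most 1000 bases between the start codons. Of these divergent partners 35 were tested, of which 13 were called lower, 10 higher and 12 not called. That is 37.1% called lower, close to the 37.0% of all genes, at a median log2 fold change of -0.04. The median of the 35 mitoribosomal genes in these pairs was -0.61.

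Single pairs differed widely. SVF1, which shares its upstream region with MRP1 and whose protein is known for a role in survival under oxidative stress, was at 274 and 292 CPM uninduced and 749 and 736 CPM induced, the largest rise of the partners, with a log2 fold change of 1.39 ± 0.05 (adjusted p = 1.44e-10, limma). MRP1 itself fell, as given above. URA7, a CTP synthase gene and partner of MRPL16, was at 79.5 and 98.2 CPM uninduced and 30.6 and 29.2 CPM induced, the largest fall, with a log2 fold change of -1.53 ± 0.09 (adjusted p = 1.17e-08, limma). MRPL16 fell less, with a log2 fold change of -0.36 ± 0.06. IMP3, a component of the small subunit processome in the nucleolus and partner of MRPL6, was at 31.04 and 28.36 CPM uninduced and 12.8 and 13.2 CPM induced, a log2 fold change of -1.13 ± 0.10 (adjusted p = 4.41e-07, limma). Both genes of this pair fell by similar amounts. SNF12, a subunit of the SWI/SNF chromatin remodeller and partner of the uncalled MRPL50, was at 84.7 and 78.6 CPM uninduced and 80.5 and 83.8 CPM induced, also without a call (adjusted p = 0.901, limma). These pairs were named after their values were seen.

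**Figure D4:**
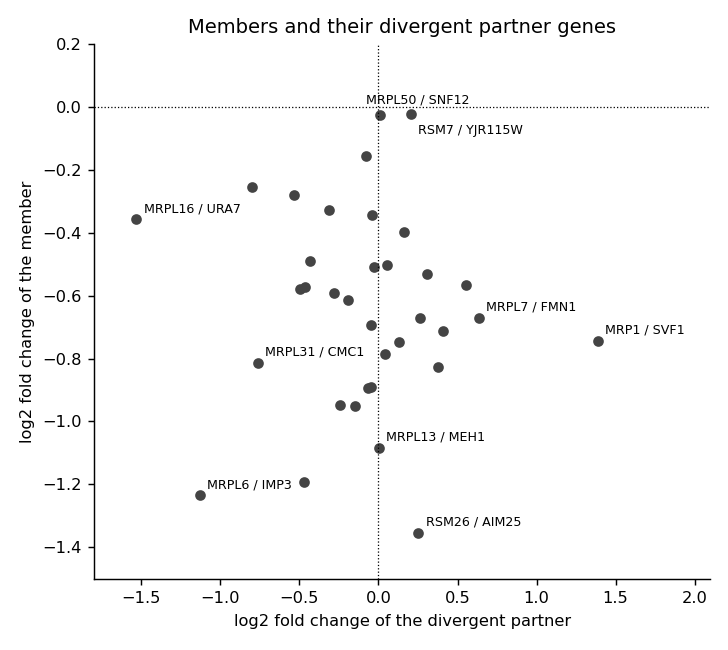
Log2 fold change of each mitoribosomal gene (vertical axis) against that of its divergent partner (horizontal axis), for 35 pairs, both on the log2(CPM + 1) scale. The partners spread from -1.53 to 1.39 on both sides of 0, while the mitoribosomal genes lie at or below 0.

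Motifs before the start codon were searched on both strands in 300-base windows, 250 bases before to 50 bases from the start codon on. The box CCAAT, bound by the Hap complex that activates respiratory genes, was in the window of 27 of the 65 genes, 41.5%, against 43.4% of all genes. The core of the PAC element, GATGAG, was in 11 windows, 16.9%, against 20.5% of all genes. The core of the RRPE element, with the letters AAAATTT, was also in 11 windows, 16.9%, against 23.5% of all genes. PAC and RRPE are known from the promoters of cytosolic ribosome assembly genes. None of these shares was higher than the share in all genes, and the medians with and without a match were -0.70 and -0.67 for CCAAT, -0.67 and -0.69 for PAC and -0.71 and -0.67 for RRPE.

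The span of 250 bases between the start codons of MRPL6 and IMP3 held 1 match to each of these 3 motifs, and the span of 224 bases between MRPL50 and SNF12 held 0. Only these spans were searched, and they were chosen after the changes of their genes were seen. They therefore cannot show whether the motifs go with a shared fall. The RRPE and PAC cores of the MRPL6 and IMP3 span lie close together and are shown because both genes fell. The stretch is chrVIII:393431-393459 on the plus strand of R64, with both cores in capitals and the PAC core in its reverse complement, and the motifs do not overlap.
MRPL6 and IMP3: aaAAAATTTcactgatataagCTCATCgc

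Other genes of mitochondrial translation were taken from lists chosen from general knowledge. Among all genes tested 37.0% were called lower and 35.6% higher, the shares to set beside each list. Of 15 mitoribosomal proteins with other names, 13 fell and 1 rose, at a median log2 fold change of -0.55. MNP1, the L12 homologue of the factor-binding stalk, was at 232 and 251 CPM uninduced and 97.2 and 91.9 CPM induced, a log2 fold change of -1.34 ± 0.06 (adjusted p = 6.04e-10, limma). IMG1, the homologue of bacterial L19, rose, from 168 and 169 to 239 and 199 CPM, a log2 fold change of 0.37 ± 0.07 (adjusted p = 4.75e-04, limma). Its groups did not overlap, and it is a ribosomal protein of the large subunit that moved against the 65 genes. The call was lost against a 1.2-fold change (adjusted p = 0.157, limma). It was not called in the authors' deposited table either, with an adjusted p of 0.224.

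All 9 mitochondrial translation factors fell, at a median log2 fold change of -0.58, with the elongation factor genes in the lead. With DESeq2 8 of 9 were called, FMT1 losing its call (adjusted p = 0.0576), and against a 1.2-fold change 7. MEF1, for the mitochondrial elongation factor G, was at 271 and 266 CPM uninduced and 124 and 126 CPM induced, a log2 fold change of -1.09 ± 0.05 (adjusted p = 8.94e-10, limma). Of 11 genes for mitoribosome assembly and rRNA, 6 fell and 1 rose, at a median of -0.35. The DEAD-box helicase gene MSS116 had a log2 fold change of -1.21 ± 0.06 and the GTPase gene MTG1 one of 0.63 ± 0.06. MTG1, which acts in assembly of the large subunit, was at 68.4 and 67.0 CPM uninduced and 103 and 108 CPM induced (adjusted p = 8.38e-07, limma). Of 16 genes for charging of mitochondrial tRNAs, 12 fell and 2 rose, at a median of -0.41, from MSD1 at -0.80 ± 0.07 to SLM5 at 0.41 ± 0.05, the synthetase genes for aspartate and asparagine. With libraries scaled to their totals 9 were called lower, and against a 1.2-fold change 8 lower and 1 higher.

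Of 16 activators that act on single mitochondrial mRNAs, 10 fell and 1 rose, at a median log2 fold change of -0.30, and 3 fell against a 1.2-fold change. The median was -0.17 with libraries scaled to their totals, which moved the medians of assembly genes to -0.23 and of transcription genes to -0.11. CBP6, which acts on the cytochrome b mRNA, had -0.77 ± 0.07, and CBS1, which acts on the same mRNA, rose from 13.1 and 12.3 to 25.6 and 21.3 CPM, a log2 fold change of 0.83 ± 0.11 (adjusted p = 2.81e-05, limma). Of 4 receptors that hold ribosomes at the inner membrane, 1 fell and 2 rose. OXA1, which inserts newly made proteins into the membrane, had a log2 fold change of -0.30 ± 0.05 and YLH47 one of 0.43 ± 0.06. Against a 1.2-fold change 0 of these receptors were called lower and 1 higher, OXA1 losing its call (adjusted p = 0.482, limma). Of 6 genes for mitochondrial transcription and RNA turnover, 3 fell and 1 rose, at a median of -0.24. The share called lower was 25% of the receptors and 50% of the transcription genes, on either side of the 37.0% of all genes. SUV3, the helicase of the mitochondrial degradosome, had -0.78 ± 0.07. ABF2, which packs mitochondrial DNA, rose by a log2 fold change of 0.14 ± 0.05 (adjusted p = 0.0220, limma), and that call was lost without uninduced library 2, induced library 1 or induced library 2 (adjusted p of 0.0951, 0.0567 and 0.117). The authors' deposited table held an adjusted p under 0.05, in either direction, for 5 of 16 activators and 7 of 16 tRNA charging genes. It also held one for 9 of the 15 other mitoribosomal proteins, 7 of the 9 translation factors and 6 of the 11 assembly genes. Among the receptors it was 1 of 4, and among the transcription genes 2 of 6. The 8 mitochondrially encoded proteins on the list were not analysed here.

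**Figure D5:**
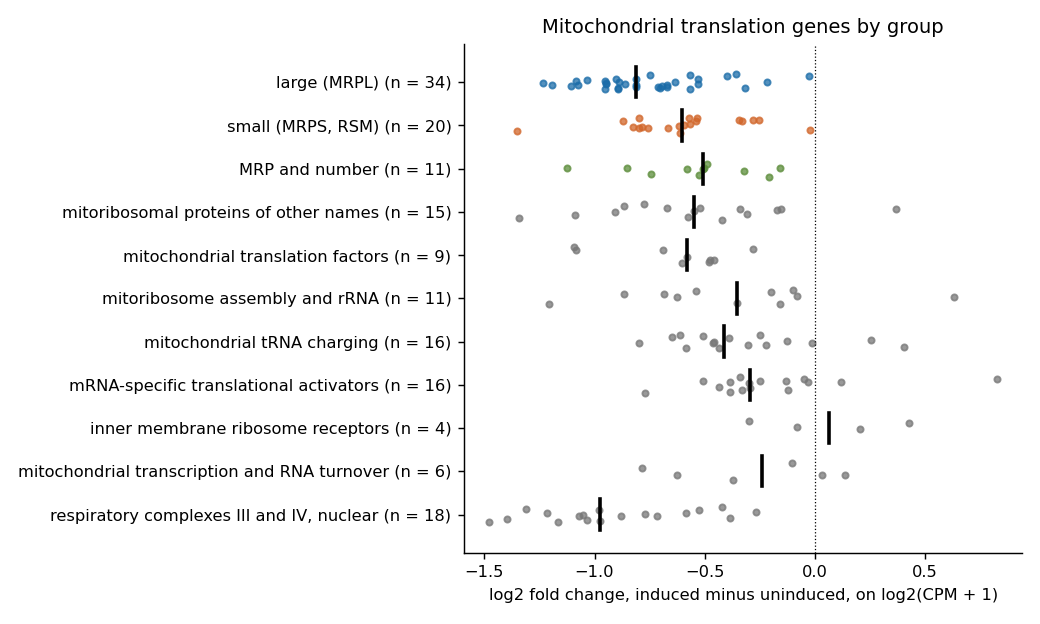
Log2 fold change of single genes (points) with the median (black line) for the 3 name classes of the 65 genes and for 8 lists of related genes, on the log2(CPM + 1) scale. Large subunit genes have a median of -0.81, the respiratory complexes one of -0.98, and the ribosome receptors one of 0.06.

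Among the nuclear genes for respiratory complexes III and IV, the products of which meet the mitochondrially made subunits, 18 of 18 fell, at a median log2 fold change of -0.98. COX8 lost its call without induced library 1 (adjusted p = 0.0758, limma), with DESeq2 (0.106), without the filter (0.0771) and without the variance trend (0.0585), which leaves 17, and 15 were called against a 1.2-fold change. CYT1, for cytochrome c1, fell most, with -1.48 ± 0.05. The Puf3 core was found behind 0 of these 18 genes, against 13 of the 16 tRNA charging genes and 4 of 137 cytosolic ribosomal protein genes. Of 7 regulators listed, 5 fell and 2 rose, at a median log2 fold change of -0.43. SFP1 had a log2 fold change of -0.43 ± 0.06 and HAP1 one of 0.41 ± 0.10. The call of HAP1 was lost with DESeq2 (adjusted p = 0.0779) and without the filter (0.0555, limma). HAP4, the activating subunit of the Hap complex, was at 525 and 554 CPM uninduced and 187 and 173 CPM induced. Its log2 fold change was -1.58 ± 0.05 (adjusted p = 1.00e-10, limma). HAP5, a DNA-binding subunit of the same complex, was at 72.7 and 71.0 CPM uninduced and 157 and 159.6 CPM induced, a log2 fold change of 1.13 ± 0.06 (adjusted p = 1.67e-09, limma). The other subunit genes, HAP2 and HAP3, fell with HAP4, with log2 fold changes of -0.86 ± 0.06 and -0.26 ± 0.09 (adjusted p = 4.01e-08 and 0.0192, limma). The call of HAP3 was lost without uninduced library 2 (adjusted p = 0.168) or induced library 2 (0.111), with DESeq2 (0.0846) and with libraries scaled to their totals (0.173).

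Of 137 cytosolic ribosomal protein genes, 135 fell, at a median log2 fold change of -1.02. Their summed CPM was 87300 and 92277 uninduced and 43550 and 45505 induced. That was 9.61 and 10.4 times the sum of the 65 mitoribosomal genes in the uninduced and 7.78 and 8.17 times in the induced libraries, lower in both induced libraries. The difference between the families was not tested.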

How the data were processed

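Libraries were made from total RNA of 4 cultures with a stranded mRNA kit, per the labels' protocols. The submitters' processing notes name TopHat2 2.0.13, HTSeq, edgeR, R64 and sacCer3. For the annotation release, filters and strand setting, details were not given in the sources used here. Per the file headers, the deposited values are CPM. They are a normalized signal, since the library size behind the authors' scaling was 0.974 and 0.960 (uninduced) and 1.05 and 1.06 (induced) times the reads recovered. Plain CPM had been assumed, and the test for CPM was kept. Whole reads were recovered from the steps of the deposited signal for 100% of values within 0.001 reads, 10397606 to 15582338 per library. In uninduced library 2 the step, 0.1002 CPM, is close to a round decimal, which makes this weaker evidence there. Run on these reads, edgeR called 4413 of 6037 genes. The log2 fold change and the FDR-adjusted p-value of the authors' deposited table were used as a description.

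The fit was limma 3.58.1 (R 4.3.3) on log2(CPM + 1) over the 6037 genes with a mean of at least 1 CPM, with an intensity trend, group as the single term, two-sided tests and Benjamini-Hochberg adjustment, and a call at an adjusted p under 0.05. Fold changes on this scale understate the change of low genes. Alternatives used edgeR 4.0.16 and DESeq2 1.42.0 on recovered reads, other scalings, pseudocounts and filters, and each library left out in turn. The fits were tested on simulated data in which far fewer genes changed than were called here. That test therefore does not cover the call rate or the scaling of these libraries. Replicate numbers were not taken to pair libraries. Windows, overlaps and neighbours came from the RefSeq genome and annotation of build R64; 3 of the 65 genes (MRPL19, MRPL51 and MRP4) overlap another annotated gene, MRPL19 on its own strand. The members and lists were chosen with earlier results of these data known. Genes named in full were, per name class, the 3 with the largest fall and the 2 nearest 0, all members not called, the 3 highest and 2 lowest per kilobase, and from each list the called genes with the largest change each way, with PUF3 and HAP4.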

Additional observations from a re-analysis of the deposited data

How the results depend on the processing

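The count of the 65 genes called lower was 58 to 63 under the other scalings, pseudocounts, filters, variance models, tests and left-out libraries, and 52 against a 1.2-fold change, where 23.2% of all genes were; 0 were called higher in each. The median log2 fold change of the 65 genes was -0.55 with libraries scaled to their totals, -0.56 with edgeR without TMM factors and -0.65 with a pseudocount of 5, and -0.72 to -0.65 with 1 library left out. The first 2 moved with the median of all genes, which shifted by 0.12 and 0.13. The median of large minus that of small subunit genes was -0.17 with a pseudocount of 5, -0.16 with the MRP and number genes added, and -0.23 to -0.15 with 1 library left out; the cause was not tested. No value changed direction with a call. Of the 62 genes called lower, 52 kept the call under all 17 alternatives and 10 lost it under at least 1 (MRP2, MRP10, MRPL9, MRPL16, MRPL27, MRPL36, MRPS8, MRPS16, RSM18 and RSM19), while MRP21 gained one. RSM19 lost it without induced library 1 (adjusted p = 0.0680, limma). Among 142 genes from the lists and the divergent pairs, 41 lost a call under at least 1 alternative, 9 gained one and 0 reversed. Counts over all genes fell by more than 1.5 times against a 1.2-fold change, to 1399 lower and 1286 higher.

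The deviations of same-numbered libraries had r = -0.14 over 6037 genes and -0.01 over the 5017 genes at 20 CPM or above on average. With a single difference per group, this cannot show whether the cultures were paired, and the labels give no pairing. With the replicate number as a block, 63 of the 65 genes were called lower, MRP21 joining (adjusted p = 0.0350, limma), and over all genes 2293 lower and 2219 higher. With the numbers crossed, an alternative chosen after seeing the data, 62 of the 65 genes were called lower.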
